A study of Drosophila melanogaster with 3 samples.

Results

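The peaks described here were weak but recurrent ChIP-seq peaks of the CG18262 fusion protein in whole Drosophila melanogaster embryos. They were the peaks of the pooled list that lay below the authors' reproducibility threshold and yet had a summit within 100 bp of a summit in each of the 3 replicate lists. Of the 30000 pooled peaks, 8529 formed the thresholded list, 21471 had a lower signal value, and 5416 of the latter (25.2%) met this rule. These 5416 peaks were chosen by the measured signal values and summits of all 5 lists, so their strength and their recurrence are given as a description and are not findings.

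All samples belonged to 1 group. Embryos of mixed sex, aged 0 to 16 h, came from a transgenic line that stably expressed CG18262 with GFP at its C-terminus, and an anti-GFP antibody was used for the immunoprecipitation. The labels number 3 biological replicates, each with 1 technical replicate and its own biosample entry, and give a DNA size range of 200 to 800 bp. Every list except the thresholded one held exactly 30000 peaks, and the read depth is unknown. Neither the promoter that drove the fusion nor the level of the untagged protein is stated in these sources. Whole embryos mix all cell types, so a site used in few cells and a site weakly occupied in many cells cannot be told apart. Control reads and embryos without the tag were not analysed here.

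In chromatin immunoprecipitation, DNA fragments crosslinked to a tagged protein are recovered and sequenced, and a peak marks where they pile up. Its summit is the best estimate of the contact point. A reproducibility threshold such as the irreproducible discovery rate (IDR) keeps peaks whose ranks repeat between replicates and drops the tail of weak ones, in which contact in few cells, indirect contact through looping and general stickiness of open chromatin are mixed. Promoters of active genes are the usual place of open chromatin in the compact Drosophila genome, while introns and intergenic stretches hold most enhancers.

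The windows below show the DNA at the summits that the results turn on. Each reaches 50 bp to either side of a summit, on the plus strand of dm6, in the RefSeq sequence of that assembly, and capitals mark runs of at least 6 A or T bases. The first set comes from the members of highest pooled signal value outside promoters, which lay far from any thresholded summit, and is shown because its windows range from nearly unbroken A/T runs to a GT-rich stretch.
Fie, intergenic (chr3L:3870672-3870772): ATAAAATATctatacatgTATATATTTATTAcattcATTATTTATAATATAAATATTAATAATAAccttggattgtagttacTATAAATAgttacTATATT
CG43335, intergenic (chr3R:15628130-15628230): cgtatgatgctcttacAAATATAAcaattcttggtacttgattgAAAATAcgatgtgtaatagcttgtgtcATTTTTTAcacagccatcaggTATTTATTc
kek5, intron (chrX:19402531-19402631): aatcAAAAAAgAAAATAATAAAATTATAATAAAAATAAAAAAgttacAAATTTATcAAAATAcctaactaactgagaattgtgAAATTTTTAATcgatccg
CG13698, intron (chr3L:18096955-18097055): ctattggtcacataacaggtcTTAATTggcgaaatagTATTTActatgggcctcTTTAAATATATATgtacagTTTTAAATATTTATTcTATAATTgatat
ftz-f1, intron (chr3L:18771673-18771773): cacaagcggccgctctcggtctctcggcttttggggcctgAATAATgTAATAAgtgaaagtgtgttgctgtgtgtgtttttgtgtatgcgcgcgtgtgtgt

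The second set shows members that ranked high in every replicate list, each with the thresholded summit beside it, because a large group of members had such a neighbour. The member always lies at the higher coordinate. A and T made up 69.3% of the Rgl member window and 72.3% of its neighbour. The contrast was 48.5% against 76.2% at htl, 61.4% against 74.3% at Pits, 57.4% against 84.2% at Oli, 51.5% against 78.2% beside comm2, and 36.6% against 52.5% beside CG9743.
Rgl, member (chr3L:13920595-13920695): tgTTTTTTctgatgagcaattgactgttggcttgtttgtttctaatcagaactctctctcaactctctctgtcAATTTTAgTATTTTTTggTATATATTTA
Rgl, neighbour (chr3L:13920331-13920431): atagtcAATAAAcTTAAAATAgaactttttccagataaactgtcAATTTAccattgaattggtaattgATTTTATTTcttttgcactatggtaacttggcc
htl, member (chr3R:18049951-18050051): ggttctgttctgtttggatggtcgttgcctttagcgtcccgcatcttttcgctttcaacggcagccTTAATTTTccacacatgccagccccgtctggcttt
htl, neighbour (chr3R:18049715-18049815): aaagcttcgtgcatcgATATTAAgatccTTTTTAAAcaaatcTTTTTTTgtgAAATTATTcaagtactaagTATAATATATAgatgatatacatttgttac
Pits, member (chrX:12576334-12576434): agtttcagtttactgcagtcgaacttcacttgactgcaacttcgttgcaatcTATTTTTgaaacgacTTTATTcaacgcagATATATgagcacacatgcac
Pits, neighbour (chrX:12576114-12576214): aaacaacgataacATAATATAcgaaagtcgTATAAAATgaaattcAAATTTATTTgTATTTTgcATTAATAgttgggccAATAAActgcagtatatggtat
Oli, member (chr2L:17589043-17589143): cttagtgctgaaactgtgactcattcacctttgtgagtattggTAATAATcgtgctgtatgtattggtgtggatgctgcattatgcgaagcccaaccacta
Oli, neighbour (chr2L:17588824-17588924): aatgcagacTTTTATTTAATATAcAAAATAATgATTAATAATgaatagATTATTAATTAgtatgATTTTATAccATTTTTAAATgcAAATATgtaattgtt
comm2, member (chr3L:15700679-15700779): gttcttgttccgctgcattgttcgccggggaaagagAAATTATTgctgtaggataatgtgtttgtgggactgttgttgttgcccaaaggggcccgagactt
comm2, neighbour (chr3L:15700478-15700578): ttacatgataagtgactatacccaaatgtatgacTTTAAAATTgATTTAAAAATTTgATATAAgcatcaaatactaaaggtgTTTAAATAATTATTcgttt
CG9743, member (chr3R:30203583-30203683): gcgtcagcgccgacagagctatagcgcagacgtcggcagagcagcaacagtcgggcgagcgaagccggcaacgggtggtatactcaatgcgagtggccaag
CG9743, neighbour (chr3R:30203339-30203439): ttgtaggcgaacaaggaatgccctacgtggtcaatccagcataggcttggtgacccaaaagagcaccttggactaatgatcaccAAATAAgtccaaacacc

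Recurrence in the replicates fell steeply with pooled rank. In the bin just below the threshold, pooled ranks 8530 to 10529, 71.6% of peaks (95% interval 69.5 to 73.5) were near a summit in all 3 lists. The share was 37.4% at ranks 14530 to 16529 and 0.408% in the last bin, from rank 28530. Among thresholded peaks it was 88.8%. Of the remaining sub-threshold peaks, 7774 matched a summit in 2 lists, 6634 in 1 list and 1647 in none. Of the bases of the chromosome arms, 1.68% lay within 100 bp of a summit in all 3 lists. This is not a chance level for pooled summits, because the pooled list was made from the same replicates. Members had a median pooled signal value of 157.9, on the authors' unstated scale, against 74.3 for the other sub-threshold peaks. The deposited −log10 q-value stood at the list's maximum of 4.38 for 2399 members (44.3%) and for 7.46% of the others.

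**Figure D1:**
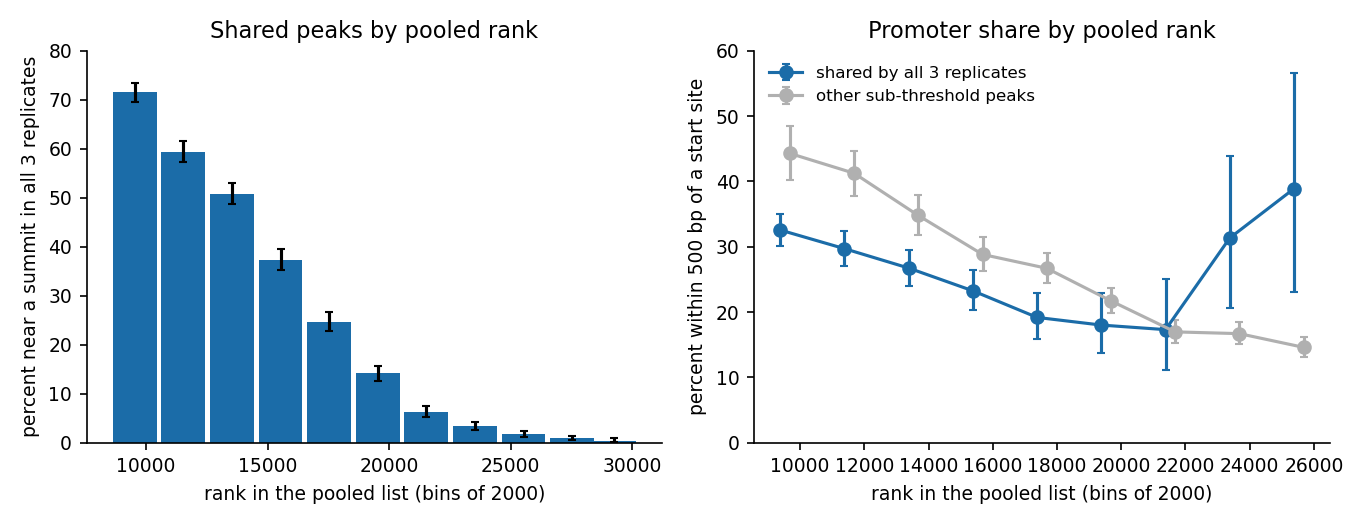
Left, percent of sub-threshold pooled peaks with a summit within 100 bp in all 3 replicate lists, in bins of 2000 pooled ranks; right, percent of members (blue) and other sub-threshold peaks (grey) within 500 bp of a protein-coding start site, for the first 9 bins. Whiskers show exact 95% intervals. Recurrence falls from 71.6% to below 1%, and members lie below the others in promoter share down to rank 20529.

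The values on either side of the limits differed little. The weakest thresholded peak, in the 3' UTR of Cht7, had a signal value of 252.163, and the strongest member, at a start of ewg, had 252.150. The strongest sub-threshold peak that was no member lay at the start of Eip63E with a value of 252.112, and its nearest replicate 2 summit was 161 bp away. Of the members at the distance limit, the peak in pros had its replicate 1 summit exactly 100 bp away, and the peak at Mcm5 its replicate 3 summit. The peak at cindr, with its replicate 2 summit just over 100 bp away, fell outside. The largest of a member's 3 offsets had a median of 53 bp, against 35 bp for thresholded peaks found in all 3 lists.

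Members occupied the middle of each replicate list. Their median ranks by signal value were 14513.5, 14460.5 and 14616 of 30000 in replicates 1, 2 and 3. Replicate 1 gave the best of the 3 ranks for 36.8% of members, replicate 2 for 32.0% and replicate 3 for 31.2%. The poorest rank also came most often from replicate 1, at 34.8%, against 31.0% for replicate 2 and 34.2% for replicate 3. The first 8529 places of the lists held 638 members (11.8%) in replicate 1, 415 (7.66%) in replicate 2 and 316 (5.83%) in replicate 3. The order of members was poorly kept between replicates. Spearman's rho of the ranks across members was 0.30 for replicates 1 and 2, 0.21 for 1 and 3, and 0.36 for 2 and 3, against 0.81 to 0.86 across the 7571 thresholded peaks found in all 3 lists. These are correlations across peaks called from a shared control, over a range of strengths that the rule cut short, and peaks are not independent replicates. The median ratio of a member's poorest to its best rank was 1.65.

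Single members spanned this range. Signal values are on each list's own scale, so lists are compared by rank. The peak at a start of ewg, which encodes a transcription factor of neurons and flight muscle, had replicate signal values of 83.5, 78.3 and 113.8. Its ranks were 8139, 8732 and 8712, so all 3 replicates placed it close to the threshold's position. The peak 313 bp downstream of an internal start of crol, a zinc finger gene of the ecdysone response, had values of 21.6, 47.4 and 217.9. Its ranks were 29713, 13869 and 4701. At CG7115, replicate 1 ranked the peak 3421 and replicate 2 ranked it 29382. The poorest ranks were 29992 for an intronic peak of luna nearest to CG43188 (replicate 2), and 29990 for CG17019 (replicate 2) and snu (replicate 3), close to the ends of those lists.

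The distance from members to the nearest thresholded summit fell into 2 separate ranges. No member lay within 150 bp, 731 members (13.5%, interval 12.6 to 14.4) lay 151 to 300 bp away, and only 13 lay over 300 and up to 500 bp away. From there 609 lay at up to 1000 bp, and 4063 (75.02%) lay beyond 1000 bp, with a median over all members of 2334 bp. The close group was narrow, as 541 of its peaks fell between 200 and 250 bp. The other sub-threshold peaks had the same gap, with 1790 within 300 bp and 60 over 300 and up to 500 bp away, so the spacing was not particular to peaks shared by the replicates. Shares within 300 bp were 13.2% for peaks matched in 2 lists, 9.89% in 1 list and 6.74% in none.

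Members next to a thresholded summit lay nearly all on 1 side of it. Of the 731, 730 had the higher coordinate, and at their replicate summits the counts were 657 of 658, 681 of 682 and 696 of 697 in replicates 1, 2 and 3, where the neighbour was also matched. Members over 300 and up to 1000 bp away showed no such bias, with 51.3% (interval 47.3 to 55.3) on the higher side. Of the other sub-threshold peaks within 300 bp, 1788 of 1790 were on the higher side. The neighbour was stronger by definition in the pooled list, by a median factor of 2.95, and the factor was 2.76, 3.07 and 3.27 in replicates 1, 2 and 3. The peak caller is not stated in these sources, and whether the side reflects how summits were split within a region was not tested.

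Every member that ranked within the first 8529 of all 3 replicate lists belonged to this close group. There were 19 such members, all at most 278 bp from a thresholded summit, with pooled ranks from 9003 to 29515. Of the 117 members that ranked better in every replicate than in the pooled list, 82 (70.1%) were in the close group. In contrast, 1196 members (22.1%) ranked poorer in every replicate than in the pooled list. The clearest case of a better rank in every replicate lay in an intron of Rgl, which encodes a Ral guanine nucleotide exchange factor. Its signal values were 462.7, 209.3 and 341.3 in replicates 1, 2 and 3, at ranks 894, 2823 and 2805. In the pooled list it had 68.1, at rank 23128, while its neighbour 264 bp away had 3523. It was thus among the strongest peaks of every replicate. In the pooled list it was somewhat below the other sub-threshold peaks' median signal value of 74.3.

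Other peaks at the head of the close group also ranked better in every replicate than in the pool, by differing amounts. These peaks and the Rgl peak were chosen for their replicate ranks, and no member has a pooled rank better than 8530. The direction of the difference thus follows from the choice. At koko, ranks of 3425, 3829 and 2172 stood beside a pooled rank of 9003, just below the threshold. At Imp, an RNA-binding protein of neurons and germ cells, the replicate ranks of 1581, 6582 and 2251 stood beside a pooled rank of 24317. At CG3817 they were 4129, 2810 and 3368 beside 21604, with the summit 3 bp from the start site. At p38b, a stress-activated MAP kinase, signal values of 228.5, 152.8 and 550.98 gave ranks of 2379, 4146 and 1440, and the pooled rank was 10176. At htl, the fibroblast growth factor receptor of the mesoderm, the ranks were 5226, 4427 and 3223 beside 15329. At Oli, a bHLH factor, they were 4563, 2233 and 6141 beside 11875. The neighbours of these 6 peaks ranked between 158 and 1928 in the pooled list.

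**Figure D2:**
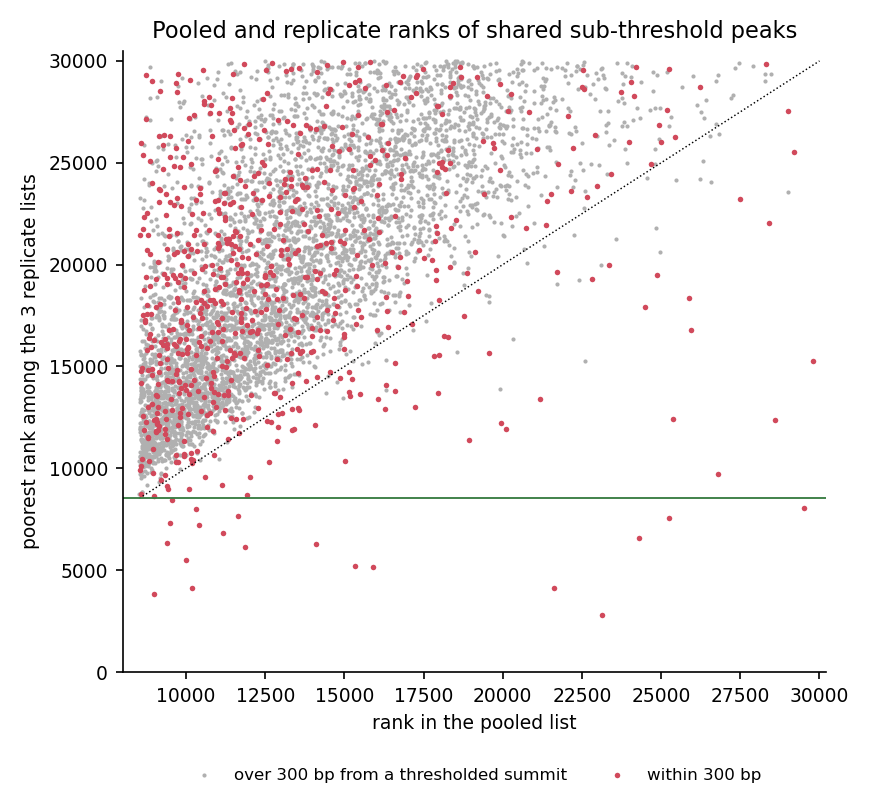
Rank in the pooled list (x axis) against the poorest of the 3 replicate ranks (y axis) for each of the 5416 members; red points lie within 300 bp of a thresholded summit and grey points farther away. The dotted line marks equal ranks and the green line rank 8529, below which there are 19 points, all red.

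Members were most often intronic. Of the 5416, 2435 (45.0%) lay in introns, 1473 (27.2%, interval 26.0 to 28.4) at promoters, meaning no more than 500 bp from where transcription of a protein-coding gene starts, and 1200 (22.2%) in intergenic sequence. Another 2.40% lay in 3' UTRs, 2.10% in non-coding exons, 0.683% in 5' UTRs and 0.499% in coding sequence (CDS). Placing the same peaks by their replicate summits, which the rule holds within 100 bp, gave a promoter share of 27.2% ± 0.0746 (SD, n = 3). Of the bases of the arms, 11.5% were within promoters, 13.9% in CDS, 39.9% in introns and 27.8% in intergenic sequence. Promoters thus held a larger share of members than of bases, CDS a far smaller one, introns a slightly larger one and intergenic sequence a smaller one. The promoter share was 37.8% for thresholded peaks, 21.7% for the other sub-threshold peaks and 14.0% for those matched in no replicate list.

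Compared at the same pooled rank, the order of members and non-members in promoter share was reversed. In the bin below the threshold, 32.6% of members (interval 30.1 to 35.1) and 44.3% of the others (40.2 to 48.5) were at promoters, and members had the lower share in each of the first 6 bins. In the next bin, from rank 20530, the shares were 17.3% and 17.0%. Members had the higher share in the bins from rank 22530, but these held only 127 members together. When the bins of the other peaks were weighted to the members' ranks, 35.6% of them were at promoters and 39.2% in introns, against 27.2% and 45.0% of members. At equal pooled rank, members were thus more often intronic and less often at promoters than the other peaks.

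Members close to a thresholded summit differed in location from the rest. Of the 731, 43.4% (interval 39.7 to 47.0) were at promoters, against 25.1% (23.7 to 26.4) of the members beyond 1000 bp. Their thresholded neighbours were at promoters in 44.6% of cases, about as often as the close members themselves.

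Exonic members away from promoters were few. Those named here have the best poorest replicate rank of their class, so their high ranks come from that choice. In the 5' UTR of Unr, an RNA-binding translational regulator, the replicate ranks were 10878, 7745 and 8385. In that of chinmo, a BTB transcription factor of neuron temporal identity, they were 11241, 8050 and 10049. The best-ranked CDS members lay in CG31673, with 13057, 9872 and 11378, and in btsz, a synaptotagmin-like gene, with 9680, 10271 and 13436. In the 3' UTR of Syt1, the calcium sensor of synaptic vesicles, the ranks were 9280, 10337 and 9821.

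Summits at promoters sat closer to the start site than those of stronger peaks. Of the 1473 promoter members, 57.8% (interval 55.2 to 60.3) were upstream, with a median position of -29 bp, against 81.2% (79.8 to 82.5) and -129 bp for thresholded promoter peaks. The best-filled interval of 50 bp was 0 to 50 bp downstream for members, with 15.6% of them, and 100 to 150 bp upstream for thresholded peaks, with 16.7%. The other sub-threshold groups had medians of -32 to -39 bp, so the position went with low strength and was not particular to shared peaks. The upstream share of members was 51.7% for genes on the plus strand and 65.3% for genes on the minus strand, and 55.4% and 64.7% beyond 1000 bp from a thresholded summit. For thresholded peaks it was 83.1% and 79.3%.

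**Figure D3:**
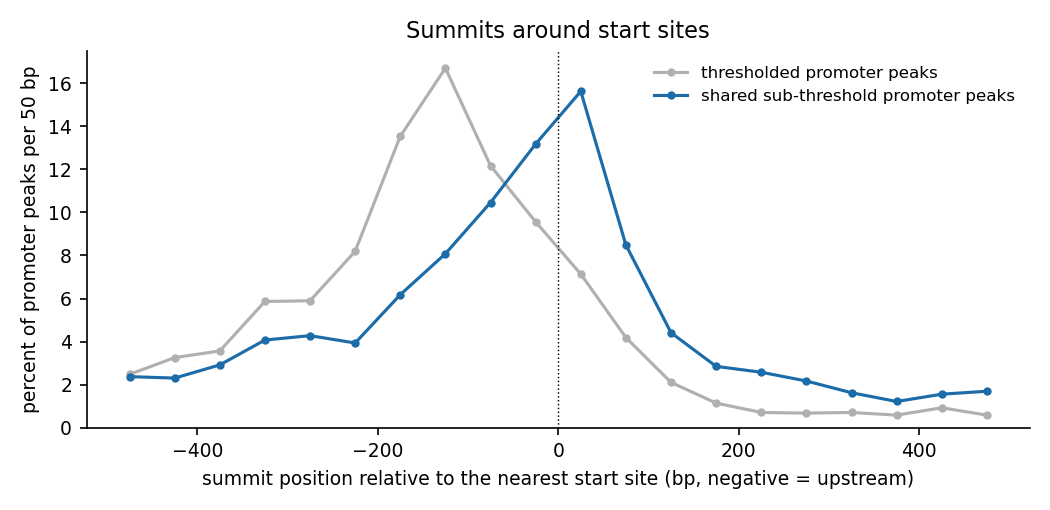
Position of promoter summits relative to the nearest protein-coding start site, in bp with upstream negative, as percent of promoter peaks per 50 bp; blue, 1473 members; grey, 3223 thresholded peaks. The members peak just downstream of the start, the thresholded peaks at 100 to 150 bp upstream.

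Member promoters added genes to those with a thresholded peak. Of 13945 protein-coding genes, 3728 (26.7%) had a thresholded summit within 500 bp of a start and 1657 (11.9%) had a member there. Of the latter, 594 had both and 1063 had a member only, which was 10.4% of the 10217 genes without a thresholded promoter peak. For 1046 of the 1063 a member lay over 300 bp from any thresholded summit. Genes share start regions, as 303 member peaks served 2 genes and 16 served 3 or more. A member counted for a gene can thus lie nearer to a start of another gene. The gene groups below are read against 10.4%, their exact intervals are wide, and the intervals were not adjusted for the number of groups. Where ranks are given for genes with a member only, these genes were chosen within their list by best poorest replicate rank.

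Cell cycle and replication genes had the highest share. Of 15 genes of this list without a thresholded promoter peak, 7 had a member (46.7%, interval 21.3 to 73.4): E2f2, a repressive E2F factor; twe, the meiotic Cdc25 phosphatase; Orc1, a subunit of the origin recognition complex; Cdk4 with its partner CycD; the mitotic kinase polo; and PCNA, the replication clamp. The E2f2 peak lay 91 bp from a start of that gene, and another protein-coding gene had a start at least as near. It had replicate signal values of 72.5, 72.0 and 118.7 at ranks 9529, 9461 and 8400. The Orc1 peak, 22 bp upstream of the start, had 67.7, 91.6 and 84.3 at ranks 10229, 7443 and 11136. The twe peak lay 160 bp from a start of that gene and at least as near to a start of another. Its values were 72.0, 81.0 and 96.6 at ranks 9598, 8455 and 9990. All 3 replicates placed these peaks just outside or near the strongest 8529. They were chosen for the best poorest replicate rank of the list, so their high ranks come from that choice. The peak 48 bp upstream of Mcm5, a subunit of the replicative helicase, had ranks of 8140, 12728 and 21473 and lay 204 bp from a thresholded summit. A member at a start of Cdk4, counted above, also belonged to the close group, 221 bp from a thresholded summit.

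In the Notch list 4 of 10 genes had a member only (40%, interval 12.2 to 73.8). They were mib1, a ubiquitin ligase that activates the ligands; pen-2, a gamma-secretase subunit; and E(spl)mgamma-HLH and E(spl)m8-HLH, bHLH repressors switched on by the pathway. The mib1 peak had replicate ranks of 7831, 5845 and 11946, and the peak at E(spl)mgamma-HLH had 10026, 14973 and 17291. Delta is missing from these counts because its listed symbol, Dl, matched no gene name, although a member lay at one of its starts. Of the axon guidance and adhesion genes 4 of 12 had a member only (33.3%, interval 9.92 to 65.1): Nrg, an L1-type adhesion molecule, caps, Ptp69D and NetB. The Nrg peak had ranks of 12506, 6763 and 13135, while Ptp69D had 13116, 25904 and 6299. The last interval reaches below 10.4%.

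Signalling and chromatin genes came next, with intervals that all included 10.4%. Of receptor tyrosine kinase and MAPK genes 4 of 15 had a member only (26.7%): the inhibitor sty, the phosphatase csw, the ligand vn and the kinase Dsor1. Of Polycomb and Trithorax genes it was 3 of 12 (25%): Pcl and Pc, of the Polycomb repressive complexes, and Asx, of the Polycomb deubiquitinase. The Asx peak lay 272 bp from a start of that gene and at least as near to a start of Cpsf160. The Pcl peak, 85 bp upstream of the start, had ranks of 11346, 8423 and 9155, and the Pc peak had 18596, 13470 and 8833. Of Wingless and Hedgehog genes it was 3 of 15 (20%): the Wingless receptor fz2 with ranks of 5997, 9245 and 14643, the Hedgehog effector ci with 7311, 11564 and 16328, and the transcription factor en with 10582, 23759 and 16882. These 3 peaks ranked best in replicate 1, Pcl in replicate 2 and Pc in replicate 3.

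Housekeeping groups were near the background. The share was 17.1% of mitochondrial ribosomal protein genes (6 of 35), 15.4% of basal transcription and Mediator genes (6 of 39), 12.5% of proteasome genes (4 of 32), 15% of Rab genes (3 of 20) and 13.3% of cytosolic ribosomal protein genes (2 of 15). Most cytosolic ribosomal protein genes, 83.9% of 93, already had a thresholded promoter peak. The mRpL12 peak, 20 bp upstream, had replicate ranks of 10387, 9773 and 13435. The peak at Hsc70-4, the constitutive Hsp70 chaperone, was 2 bp from the start and had ranks of 9472, 14477 and 6330.

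Chemosensory receptor and cuticle protein genes had few or no members. No gene had a member only among 60 gustatory receptor genes (interval up to 5.96%) or 90 cuticle protein genes (up to 4.02%), and 1 of 59 odorant receptor genes had one, Or88a, 216 bp from a thresholded summit. Among the developmental regulators, slp1 was the only gene of 14 in the gap and pair-rule list, hth of 6 in the Hox list, and Clamp of 7 in the insulator list. The slp1 peak had ranks of 7130, 11539 and 28224, near the end of the replicate 3 list. The neural list gave 2 of 17 genes, sca and pros, the latter with ranks of 7655, 6862 and 11370, and the muscle list kirre and Act57B of 16 (12.5%). Ecdysone response genes gave Eip74EF of 7, insulin, TOR and autophagy genes Pdk1 of 7, Hippo, polarity and junction genes sinu of 12, heat shock genes Hsc70-4 of 9, and immune genes spz and Dif of 17.

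Transfer RNA genes had members at a higher rate than protein-coding genes. A member lay within 500 bp of the start of 58 of 290 tRNA genes (20%, interval 15.6 to 25.1), of which 47 had no thresholded peak, but tRNA genes cluster and the 58 genes rested on 36 peaks. A single peak in an intron of sr stood beside both tRNA:Gly-TCC-1-3 and tRNA:Gly-TCC-1-4, with ranks of 12574, 8382 and 10479. Of 3261 genes annotated as ncRNA, which include the long ones, 6.50% had a member. Annotated transposable elements cover 5.93% of the arms but held 0.591% of members (32) and 0.317% of thresholded peaks.

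The DNA at member summits was richer in A and T than its flanks. Over 50 bp to either side of the summit, A and T made up 63.4% on average (SD over windows 10.2, n = 5416), against 57.9% and 57.0% in windows 300 bp to the lower and higher side and 57.8% over a grid of the arms. The same mean at the replicate summits, which the rule holds within 100 bp, was 63.3% ± 0.0835 (SD, n = 3). Thresholded peaks had 68.7%, and sub-threshold peaks matched in 2, 1 and 0 lists had 61.7%, 60.8% and 60.8%. Members outside promoters had 64.7% and those at promoters 60.1%.

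The close group had its richest DNA beside the summit and not at it. In the 731 members within 300 bp of a thresholded summit, A and T made up 58.7% at the summit, 66.3% at 51 to 250 bp on the lower side and 56.7% on the higher side, with the maximum at -190 bp, on the side of the neighbour. Members beyond 1000 bp had 64.2% at the summit, 59.9% on the lower side and 59.1% on the higher side, with the maximum at -5 bp. The windows of Pits, Oli and comm2 printed above show the first pattern, and those of Fie and kek5, with 86.1% and 82.2%, the richest end of the second.

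**Figure D4:**
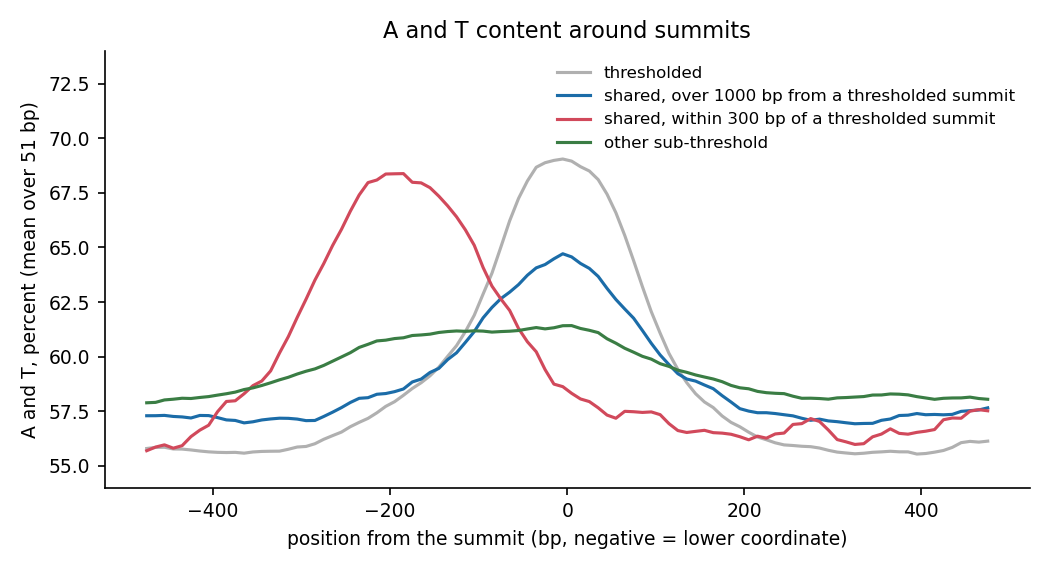
Mean A and T content in percent, smoothed over 51 bp, against position from the summit in bp, for thresholded peaks, members over 1000 bp from a thresholded summit, members within 300 bp of one, and other sub-threshold peaks. The close members reach their maximum at -190 bp and the distant members at the summit.

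Short known sequences were counted on both strands of windows of that size. TATAAA, the core of the TATA box, was in 19.2% of member windows (interval 18.2 to 20.3), against 12.4% and 9.79% in the flanks, 11.7% of grid windows, 15.5% of windows at all start sites and 27.2% of thresholded windows. Windows of sub-threshold peaks matched in 2, 1 and 0 lists had it in 16.6%, 16.7% and 16.6%. Among members it was more frequent outside promoters (20.3%) than at them (16.2%). TAATTA, a homeodomain core, was in 8.38% of member windows, against 6.44% of the grid and 12.3% of thresholded windows. Sub-threshold peaks matched in 2, 1 and 0 lists had it in 7.59%, 8.17% and 7.53%. Both words consist only of A and T. AAAAAAA, another such word, was in 12.9% of member windows, 13.2% of thresholded windows and 8.58% of the grid. How far the A and T content of the windows accounts for these shares was not tested.

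Some words of core promoters were more frequent at promoter members than at other members. TATCGATA, the DNA replication related element, was in 4.96% of promoter members and 0.228% of other members, against 4.48% of all start sites, 3.29% of thresholded promoter windows and 0.281% of the grid. GGTCACAC, known as Ohler motif 1, was in 3.598% of promoter members, against 4.68% of start sites and 1.68% of thresholded promoters. TCAGTT, an initiator form, differed little, with 8.01% of promoter members (interval 6.68 to 9.52) and 6.64% of other members (5.89 to 7.47). These intervals overlapped, and the share was 6.35% of the grid and 15.5% of start sites. GAGAG, the GAGA factor core, was in 11.9% of all members and 11.6% of the grid. CACACACA was in 3.05% of members and 0.9497% of thresholded windows, with 3.51% and 3.56% in the members' own flanks and 2.06% of the grid. Sub-threshold peaks matched in 2, 1 and 0 lists had it in 2.93%, 2.85% and 2.55%, close to the share of members. CANNTG, the E-box, was in 37.2% against 39.4% of the grid.

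Members were spread over all arms. Their density was 49.95 per Mb on X (exact Poisson interval 47.1 to 52.9), 42.6 on 3L, 42.0 on 2L, 40.1 on 4 (interval 30.1 to 52.3), 35.4 on 2R and 34.4 on 3R, and the share of sub-threshold peaks that were members varied only from 23.7% on 4 to 26.4% on X. The X-linked density of all sub-threshold peaks was also the highest, at 189.4 per Mb. The nearest other member was a median of 3411 bp away. The densest 50 kb window, from 3400001 to 3450000 on 3L, held 15 members and 9 thresholded peaks, and its members lay within eIF5B, a translation initiation factor, and sty. The genes with the most members were long: 24 lay in kirre, a myoblast fusion receptor of 394.1 kb, 21 in hth, 16 in CG43658, 15 in bun and 14 each in ush and jing. Per kb this was 0.0609 members in kirre, 0.159 in hth and 0.218 in ush. The tagged gene itself, CG18262 on X from 8152948 to 8154533, had no member, and the nearest lay 10506 bp away, 163 bp upstream of Smox.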

How the data were processed

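Peak lists of anti-GFP ChIP-seq in 3 biological replicates of 1 group were analysed, with the pooled and the thresholded list, all narrowPeak files on dm6. Per the deposited file listings, each replicate list came from the reads of that replicate and a control file common to all, and the thresholded list from the replicate and pooled lists. Names of the aligner and the peak caller were not given in the sources used here. The signal value is the authors' score on an unstated scale, and was used only within a list. The q-value was deposited as −log10 q and ties at its maximum. Read depth is unknown. The thresholded list holds exactly the 8529 pooled peaks of highest signal value. The pooled and thresholded lists were made from all 3 replicates, so neither is an independent check of a replicate list. The replicate lists rest on different immunoprecipitated reads but share the control file.

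Summits were matched within 100 bp, to the nearest summit. Locations used Ensembl release 115 (BDGP6.54): promoter (within 500 bp of a protein-coding start site), then 5' UTR, CDS, 3' UTR, non-coding exon, intron, intergenic. Only the arms of chromosomes 2 and 3 with chromosomes 4 and X were used, and coordinates are 1-based. Sequence came from RefSeq's copy of this assembly. With 1 group there was no test. Intervals of shares are exact Clopper-Pearson ones at 95% and those of densities exact Poisson ones, both for counting error only, and neighbouring peaks and genes are not independent. Peaks in 1 list are not replicates. The SD over n = 3 uses the 3 sets of replicate summits of the same members. The rule holds these within 100 bp of the pooled summit, so this SD does not measure the variation between replicates.

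Members, gene lists, known sequences and alternatives were chosen with earlier results of these data known. Named peaks were the 12 members of highest pooled signal, the 12 of best poorest replicate rank, the 3 best in each location class, up to 3 genes per list with a member only, the peaks at the limits, and the 3 members of poorest and the 3 of most spread ranks, with the best at non-coding RNA and tRNA genes; a few others are named to complete a count of a list. The listed symbols Z4, Pzg, zw5, Zw5, Dl, nct, Star, Gap1, Mad2, duf, Hr46, Tor, TSC1, Hsp67Bb and Hsrw matched no gene name as spelled and were not counted. Some are other names of annotated genes, as Dl is of Delta and duf of kirre, so an unmatched symbol does not mean an absent gene. Matching, distances and locations were tested on simulated data. Python 3.11.15, numpy 2.4.6, scipy 1.17.1 and matplotlib 3.10.9 were used.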

Additional observations from a re-analysis of the deposited data

Results flagged for a closer look

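Some peaks lay outside the chromosome arms that were analysed. Replicate 1 had 24 peaks and replicate 2 had 23 peaks on other sequences of the assembly, above the 3 counts that a count of 0 allows, while replicate 3 and the pooled list had none. No member can lie there, because the pooled list has no peak on these sequences.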

How the results depend on the processing

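Of 87 alternative values over 8 results, 53 stayed within the spread used to judge them (1.5 times for counts) and 34 moved. For A and T content the spread was the narrow SD over the replicate summits, so small shifts counted as moved. The number of members was 1274 with only the strongest 15000 peaks of each replicate list, 2529 with summits within 50 bp and 9038 within 200 bp. It was 7770 to 8466 when 1 replicate was left out, which asks for 2 lists in place of 3, and leaving out replicate 1 gave the 8466. Genes with a member at a start numbered 756 (50 bp), 2662 (200 bp) and 465 (strongest 15000), and 2165 to 2406 without 1 replicate. Genes with a member only numbered 457 (50 bp) and 305 (strongest 15000), and 1351 to 1485 without 1 replicate.

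The promoter share was 28.9% with 200 bp matching, 28.6% with the strongest 15000, 24.6% without members that share a region with or lie within 500 bp of a thresholded summit, 24.7% for members over 300 bp away (an alternative chosen after seeing the data), 18.9% with promoters of 200 bp and 35.4% with promoters of 1000 bp. The intron share was 46.9% without those near members, 48.8% with promoters of 200 bp and 39.4% with promoters of 1000 bp. The intergenic share was 23.5% with 50 bp matching, 24.7% with promoters of 200 bp and 20.6% with promoters of 1000 bp. The share within 1000 bp of a thresholded summit was 28.7% with 50 bp and 29.1% with 200 bp matching and 13.0% without the near members; the share within 500 bp was 13.7% and within 2000 bp 45.1%. A and T content was 62.4% with 200 bp matching, 64.7% with the strongest 15000, 63.6% in the sub-threshold peaks above their median signal value, 64.2% without the near members and also over 300 bp away, 62.7% in windows of 100 bp to either side, and 62.3% to 63.4% without 1 replicate. Apart from limits that define the value, the cause of these shifts was not tested. No paired analysis was possible because there was only 1 group. Depth is unknown, so it cannot be said which absent peaks were too shallow to see.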

Other observations

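The rule that the weaker of a close pair has the higher coordinate held in every list, not only for members. Among neighbouring summits of the pooled list within 300 bp of each other, the stronger was at the lower coordinate in 6353 of 6662 pairs (95.4%). The count was 5603 of 6068 (92.3%) in replicate 1, 5782 of 6178 (93.6%) in replicate 2 and 6469 of 6818 (94.9%) in replicate 3, and 768 of 783 (98.1%) among thresholded summits. Pairs over 300 and up to 500 bp apart were few, with 859 in the pooled list. Its source was not tested.

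A and T content was also uneven around members far from a thresholded summit and around thresholded peaks, though far less than in the close group. Neither set was freed of summits with another summit nearby. It was 0.786 percentage points higher at 51 to 250 bp on the lower side than on the higher side for members over 1000 bp from a thresholded summit, 0.991 points for thresholded peaks and 9.57 points for the members within 300 bp of one.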
